A study of Mus musculus with 10 samples.

Results

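Of 10 RNA libraries made from CD31-positive cells of B16F10 melanomas, 3 were selected on the measured level of Itgam, above 10 FPKM, and are described here as the myeloid-rich libraries. The other 7 are called myeloid-poor. FPKM, the deposited unit, counts fragments relative to transcript length and to all mapped fragments. B16F10 is a mouse melanoma cell line, and CD31, encoded by Pecam1, is a surface protein of endothelial cells that platelets and some leukocytes also carry. Itgam encodes CD11b, the integrin chain whose carriers were depleted with magnetic beads before the CD31 selection. The rich libraries are wild-type replicate 3, Shb-inactivated replicate 3 and Shb-inactivated replicate 4, and their values are given below in that order. Values of the poor libraries are given as the lowest, the median and the highest of 7. The wild-type tumours (4 libraries) grew in adult mice of the strain Cdh5-CreERt2. The Shb-inactivated tumours (6 libraries) grew in adult Shbflox/flox/Cdh5-CreERt2 mice. Both groups therefore carry an inducible Cre, with the promoter of the endothelial gene Cdh5 as its driver. The labels name no treatment, batch or date, and the sample source is labelled as tumours and lungs although the tissue is labelled as tumours.

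The split rests on a measured value, so every rich against poor difference below is a description, with no test and no p-value. Itgam had 109, 29.3 and 35.9 FPKM in the rich libraries, 29.3 being the value just inside the threshold. Just outside the threshold, wild-type replicate 2 had 5.85 FPKM and wild-type replicate 1 had 2.27. The other 5 poor libraries had 0.2 to 0.42 FPKM. Lyz2, the lysozyme gene of myeloid cells, had 2944, 2264 and 1577 FPKM, against 292 and 107 in wild-type replicates 2 and 1, while the other 5 had 16.9 to 28.7. C1qa, a chain of the complement component C1q that macrophages make, had 588, 428 and 495 FPKM, against 47.8, 21.1 and 1.02 to 3.44. By all 3 markers the rich libraries were highest, wild-type replicates 2 and 1 came next, and the remaining libraries were lowest. Myeloid-rich libraries made up 1 of 4 wild-type and 2 of 6 Shb-inactivated libraries. Fisher's exact test, two-sided, gave p = 1, and the smallest p that these numbers allow is 0.0333.

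Tumour-associated macrophages arise from blood monocytes and from resident macrophages. They clear debris with scavenger and mannose receptors, make complement, chemokines and cytokines, and often lie along blood vessels. Neutrophils and monocytes share CD11b with them, whereas S100a8 and S100a9 are abundant in neutrophils and in inflammatory monocytes. Macrophage identity depends on PU.1, an ETS factor encoded by Spi1, and on signalling through the CSF1 receptor.

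Promoters of 3 members are shown because their genes are among those that mark the split or differed most. PU.1 binds sequences with the core GAGGAA. C1qa, which differed most, had no entry among the promoters used, and the window of Lyz2 is not shown. Each line gives the 200 bases before the start site, from RefSeq on GRCm38.p6 and 5′ to 3′ on the gene's strand. Capitals mark GAGGAA or its reverse complement TTCCTC. Itgam lies at chr7:128062640-128118491 on the plus strand and its window at chr7:128062440-128062639. Mrc1, the mannose receptor CD206, lies at chr2:14229392-14332057 on the plus strand and its window at chr2:14229214-14229413. Ccl12, a monocyte-attracting chemokine, lies at chr11:82101845-82103400 on the plus strand and its window at chr11:82101645-82101844.
Itgam: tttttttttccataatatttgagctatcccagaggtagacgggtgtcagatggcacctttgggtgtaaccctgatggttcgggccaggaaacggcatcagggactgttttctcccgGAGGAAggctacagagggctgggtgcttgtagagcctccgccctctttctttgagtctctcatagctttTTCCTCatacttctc
Mrc1: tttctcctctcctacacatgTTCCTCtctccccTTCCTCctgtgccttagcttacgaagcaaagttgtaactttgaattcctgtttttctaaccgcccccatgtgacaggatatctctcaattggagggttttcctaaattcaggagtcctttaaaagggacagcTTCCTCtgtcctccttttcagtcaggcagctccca
Ccl12: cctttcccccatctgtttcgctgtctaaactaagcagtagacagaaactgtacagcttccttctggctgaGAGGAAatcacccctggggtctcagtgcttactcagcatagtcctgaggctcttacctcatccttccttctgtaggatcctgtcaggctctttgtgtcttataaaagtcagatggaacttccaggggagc
Itgam's window held 2 matches, Mrc1's 3 and Ccl12's 1. GAGGAA on either strand stood in 19% of all 32851 promoter windows and in 18.7% of the 11748 windows of tested genes. It stood in 29.6% of the 628 windows of genes counted as higher in the rich libraries (502 of 691 genes matched by symbol) and in 19% of the 58 windows of genes counted as lower. The share was 42.1% of 19 windows for the macrophage list, but also 33.3% of 18 windows for the pan-endothelial list. For the chemokine ligand list it was 16.7% of 12 windows, below the share of all tested genes. TGANTCA, the AP-1 motif, stood in 8.6% of windows of the higher genes and 3.65% of those of all tested genes, and TTNNGCAA, a C/EBP motif, in 7.32% and 5.74%. N stands for any base, both strands were searched, and neither of these motifs stood in the 3 windows shown. A match is a description of the letters, not a bound site.

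Across genes the difference was strongly one-sided. Of 28454 gene symbols, 13280 had at least 1 FPKM in at least 3 libraries and were compared on log2(FPKM + 1), a scale that understates the difference of low genes. A gene was counted as higher or lower when the means differed by at least 1 on that scale and the 3 and 7 libraries did not overlap. By this rule 691 genes (5.2%) were higher in the rich libraries and 85 (0.64%) were lower. The median difference over all tested genes was -0.03, and 69 of the higher genes differed by at least 4. Of the 691, 102 reached 1 FPKM only in the rich libraries, so they entered the comparison through the libraries in which they are high. The 691 genes held 11.1%, 7.97% and 8.38% of the summed FPKM of the rich libraries and 1.49% to 2.24% of that of the poor libraries. The genes were chosen as higher in the rich libraries, so a larger share there follows from the choice.

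**Figure D1:**
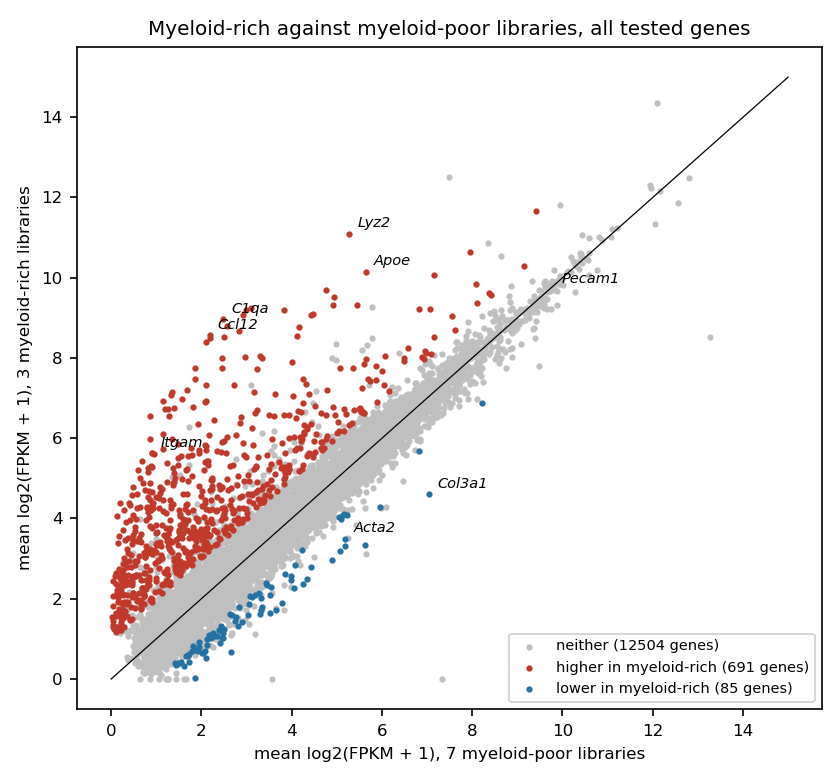
Mean log2(FPKM + 1) of each of 13280 genes in the 7 myeloid-poor libraries (horizontal axis) and the 3 myeloid-rich libraries (vertical axis), with the line of equality. Genes counted as higher (691, red) fan out above the line and reach differences over 6, whereas genes counted as lower (85, blue) stay within 2.5 of it.

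Summed FPKM ran from 477329 to 576687 per library, and FPKM keeps no read totals, so depth is unknown. Among 247 olfactory, vomeronasal and taste receptor genes, mostly near the detection limit, the most frequent value above 0 was largest in wild-type replicate 1 (0.1 FPKM) and Shb-inactivated replicate 2 (0.07 FPKM), both myeloid-poor. It was 0.01 to 0.03 FPKM in the other 8 libraries. Spearman correlations across genes were 0.961 to 0.976 among rich libraries, 0.856 to 0.975 among poor ones and 0.844 to 0.945 between the classes. Of 41 small nucleolar RNA genes, 28 or 29 were listed at 0 in 3 myeloid-poor libraries (Shb-inactivated replicates 1 and 2, wild-type replicate 1) and 8 to 19 in the other libraries. The part of these features in the results was not tested. An exact 0 can be a failed estimate, since the mitochondrial rRNA gene mt-Rnr2 was listed at 0 in wild-type replicate 3 and at 6174 FPKM or more in every other library.

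The macrophage genes showed the largest differences. Of the 20 macrophage list members, all tested, 19 were higher in the rich libraries and none lower, with a median difference of 5.00, and 4 passed the filter only through the rich libraries. Values of C1qa stand above, and its difference was 6.49. C1qb had 537, 390 and 418 FPKM against 1.3, 1.91 and 44.3, and C1qc had 391, 340 and 344 against 0.67, 1.18 and 33.2. The 3 chains of C1q, which bind immune complexes and dying cells, were thus all apart by 6 or more on the log2 scale without any overlap of the libraries. Mrc1 had 363, 366 and 292 FPKM against 0.67, 1.16 and 35, a difference of 6.32 and a ratio of the mean FPKM of 43.5. Adgre1, which encodes the macrophage antigen F4/80, had 151, 147 and 129 FPKM against 0.29, 0.66 and 11.5. Csf1r, the receptor of CSF1, had 123, 80.8 and 82.5 FPKM against 0.47, 0.53 and 8.7. In each of these genes the highest poor library was wild-type replicate 2. The lipid carrier Apoe, the most abundant member, had 1343, 917 and 1186 FPKM against 26, 30.6 and 164. Trem2 (a lipid receptor), Msr1 (a scavenger receptor), Folr2 (a folate receptor) and Ms4a7 differed by 4.94, 5.41, 5.78 and 5.75. Members at lower levels were Cd163, a haemoglobin scavenger receptor, at 13.1 to 15.5 FPKM, and Vsig4, a complement receptor, at 3.89 to 6.4 FPKM in the rich libraries. Mertk, a receptor for dying cells, was the 1 member not counted, with 13.2, 13.4 and 12.7 FPKM against 7.67, 11.4 and 14.8, and endothelial cells are known to express it too.

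**Figure D2:**
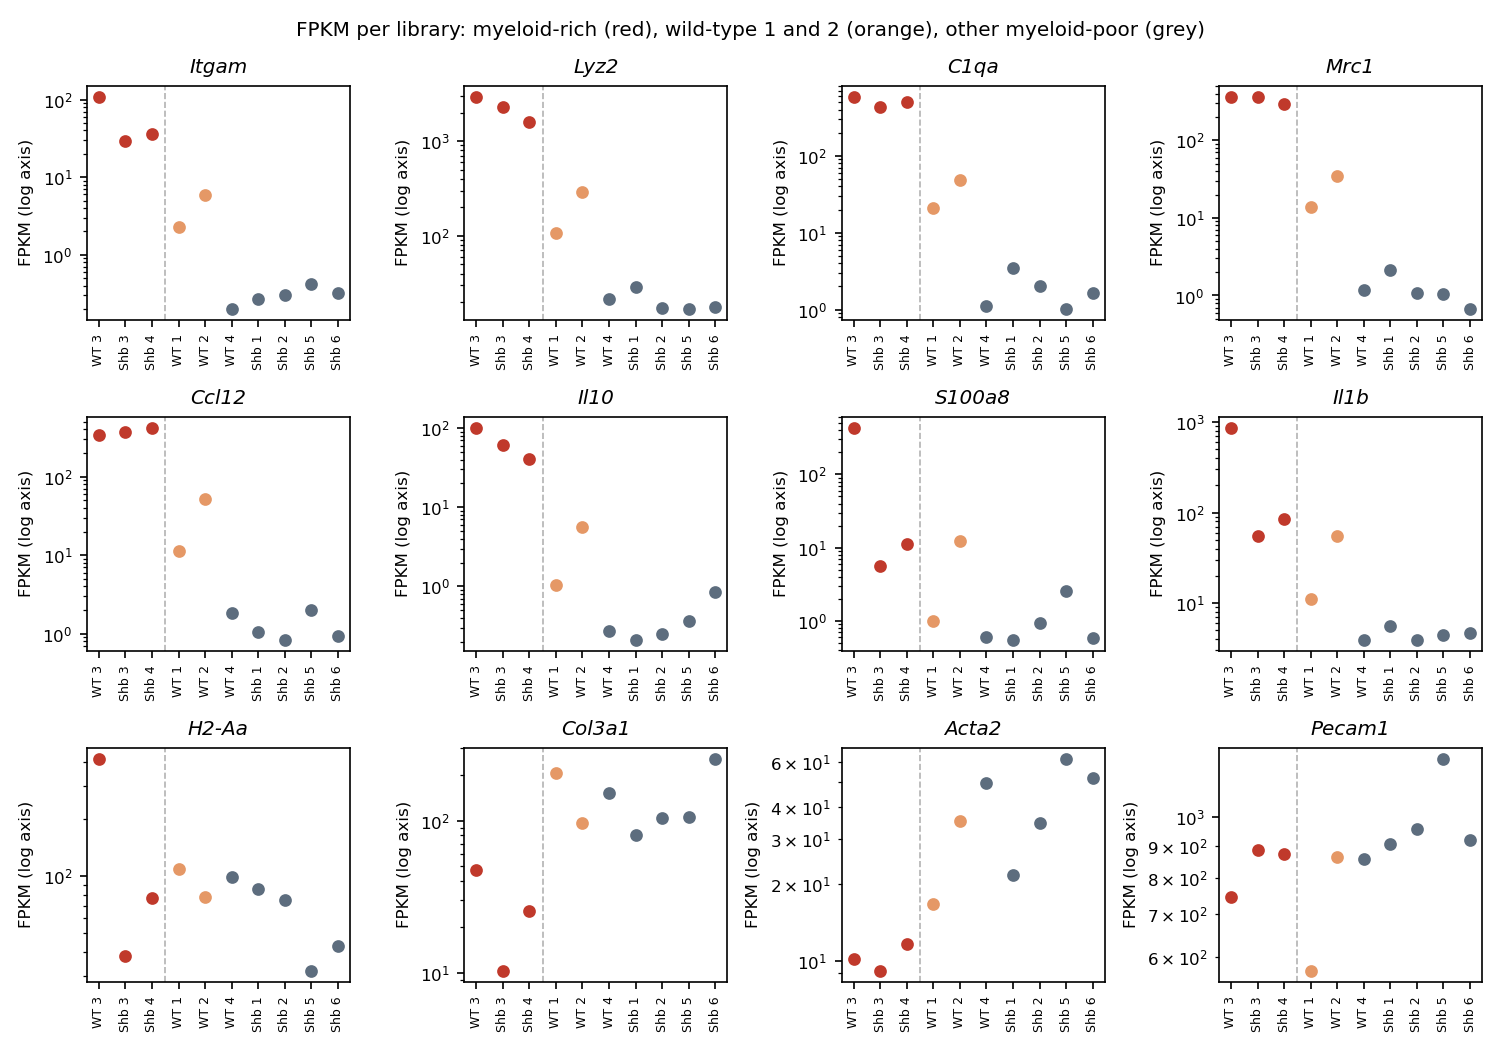
FPKM (log axis) of 12 genes in each library, with the myeloid-rich libraries left of the dashed line (red), wild-type replicates 1 and 2 in orange and the other 5 poor libraries in grey; axes differ between panels. Macrophage genes such as Mrc1 are at like levels in the 3 rich libraries, S100a8, Il1b and H2-Aa are highest in wild-type replicate 3, and Pecam1 does not separate the classes.

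The wider myeloid genes followed. Of the 18 members of the myeloid core list, 17 were higher, with a median difference of 3.54. Itgam is among the 17, and its place there was fixed in advance, because its own value made the split. Spi1, which encodes PU.1, had 60.9, 27.4 and 31.7 FPKM against 0.55, 1.1 and 4.84. Itgb2, the chain that pairs with CD11b, had 90.9, 35 and 35.6 FPKM against 1.71, 4.78 and 12.5. The adaptor Tyrobp had 546, 301 and 316 FPKM against 5.34, 13.9 and 53.4. The leukocyte antigen Ptprc (CD45) stood closer, with 106, 49.3 and 50.1 FPKM against 7.02, 17.4 and 36. Srgn, a granule proteoglycan that endothelial cells also make, was not counted, with 786, 223 and 222 FPKM against 130, 196 and 351. Lyz1 is nearly identical to Lyz2, and reads shared by such copies may have been split, so Lyz1 values (33.3, 16.2 and 9.64 FPKM in the rich libraries) are uncertain. Among myeloid transcription factors 6 of the 10 tested were higher, with a median of 1.78. Maf had 31.1, 31.8 and 24.4 FPKM against 0.67, 1.15 and 5.56, and Cebpb had 50.4, 22.3 and 25 against 3.21, 4.21 and 9.61. Klf4, which endothelium also expresses, had 32.6, 24.3 and 22.5 FPKM against 14.1, 17 and 29.4. Irf8, in contrast, had 30.1, 30.6 and 34.6 FPKM against 29.5, 37.8 and 49.

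Receptors of phagocytes were higher nearly throughout the lists. All 6 Fc receptor genes were counted as higher, with a median of 4.74. Fcer1g, the shared signalling chain, had 319, 247 and 208 FPKM against 5.51, 6.51 and 29.9. Fcgr3, a low-affinity IgG receptor, had 244, 151 and 148 FPKM against 0.55, 1.24 and 21.1. All 10 C-type lectins were higher, with a median of 4.36. Clec4n (dectin-2) had 146, 112 and 76.8 FPKM against 0.38, 0.69 and 12.8. Toll-like receptors and their partners split: 7 of 11 were higher, among them Tlr2 (65.8, 41.9 and 36.6 FPKM against 1.44, 2.13 and 6.71), Tlr8 and Cd14. Tlr4 had 60.1, 64.3 and 53.4 FPKM against 24.6, 41.7 and 63.2, with 1 poor library, Shb-inactivated replicate 5, inside the rich range. Tlr3, a sensor of double-stranded RNA, had 11.5, 17.5 and 14.5 FPKM against 11.2, 15.6 and 25.8.

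Effector genes of phagocytes were also higher. Of 10 complement genes 8 were counted, with a median of 4.55, among them properdin (Cfp) at 133, 58.9 and 67.8 FPKM against 1.12, 2.08 and 9.9. All 6 subunits of the phagocyte oxidase, which makes superoxide, were counted, with a median of 2.23. Of these Cybb, the catalytic subunit, had 52.6, 33.9 and 33.9 FPKM against 1.59, 3 and 7.06. Cyba, the partner subunit that other cell types express as well, had 227, 140 and 168 FPKM against 51.8, 55 and 77. Lysosomal genes were abundant in every library, and 10 of 12 were higher, with a median of 2.28. Ctsd, which encodes cathepsin D, had 1144, 1045 and 1051 FPKM against 106, 132 and 210. Ctsl, which encodes cathepsin L, had 538, 441 and 458 FPKM against 155, 233 and 456, with 1 poor library inside the rich range. Ctss, the cathepsin that trims the class II invariant chain, had 771, 481 and 445 FPKM against 9.96, 14.6 and 85.4.

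Chemokine ligands made up 5 of the 12 genes with the largest differences. Of 18 ligands 14 were higher and none lower, with a median of 3.97. Ccl12 had 337, 376 and 422 FPKM against 0.83, 1.81 and 51.5, a difference of 6.38. Ccl7 had 800, 572 and 482 FPKM against 2.25, 4.08 and 56.9, and Ccl8 had 496, 428 and 312 against 0.86, 3.32 and 76.2. All 3 attract monocytes and lie close together on chromosome 11. Ccl2, of the same group, had 1004, 770 and 719 FPKM against 8.66, 23.9 and 102. Ccl6 (1110, 400 and 344 FPKM) and Ccl9 (642, 302 and 252 FPKM) differed by 6.15 and 6.01. The neutrophil attractant Cxcl1 was closer, with 288, 211 and 166 FPKM against 7.16, 40.9 and 79.4. Cxcl9, an interferon-induced attractant of T cells, went the other way without separating, with 7.48, 11.8 and 7.14 FPKM against 8.06, 14.8 and 27.5. Of 9 tested chemokine receptors and related receptors 7 were higher, with a median of 3.45, and 3 passed the filter only through the rich libraries. Ccr1 had 89.5, 25.2 and 23.4 FPKM against 0.2, 0.33 and 5.94, and Ccrl2, an atypical receptor that holds the attractant chemerin, had 133, 71 and 68.9 against 2.14, 3.09 and 10.3. The C5a receptor C5ar1 had 57.1, 38.5 and 34.4 FPKM against 0.09, 0.2 and 3.68. Cxcr4, which tumour endothelium expresses, had 170, 168 and 236 FPKM against 173, 226 and 501.

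Among 12 tested cytokines and related inflammatory genes 8 were higher, with a median of 3.57. Il10, an anti-inflammatory cytokine, had 101, 60.2 and 40.3 FPKM against 0.21, 0.37 and 5.61, a difference of 5.13. Il1rn, the antagonist of interleukin 1, had 162, 77.9 and 92.3 FPKM against 0.25, 0.59 and 14.7. Tgfb1 had 41, 29.3 and 34.1 FPKM against 34.4, 40 and 68. Tnf had 87.1, 43.8 and 45.7 FPKM against 1.51, 2.47 and 15.2. Il1b missed the count because wild-type replicate 2 (55.6 FPKM) lay above Shb-inactivated replicate 3 (55.3 FPKM). Il6 had 76, 52.4 and 40.6 FPKM against 3.96, 30 and 62.7, so the classes overlapped. Genes used to describe macrophage states did not move as 1 block. Of 12, 7 were higher, some of them also members of the macrophage list, among them the haem-degrading enzyme Hmox1 (878, 621 and 706 FPKM against 20.9, 22.7 and 83.5) and osteopontin, Spp1 (635, 368 and 356 FPKM against 7.5, 16.3 and 84.8). Nos2, the inducible nitric oxide synthase, had 6.52, 5.21 and 7 FPKM against 9.08, 12.7 and 17.2, below every poor library, with a difference of -0.96, which misses the limit for a count. Thbs1, thrombospondin 1, had 595, 406 and 488 FPKM against 310, 483 and 911. The checkpoint ligand Cd274 had 13.9, 4.82 and 7.28 FPKM against 1.52, 2.19 and 2.74.

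Stress and early-response genes differed less. Of 11 immediate early and NF-kB target genes 6 were higher, with a median of 1.37. Atf3 had 275, 277 and 244 FPKM against 22.4, 87.3 and 114, and Fos had 651, 456 and 491 against 103, 195 and 269. Nfkbia, the inhibitor of NF-kB, had 478, 313 and 334 FPKM against 64.2, 163 and 212. Wild-type replicate 1 was the lowest library for Atf3 and Fos. Of 14 interferon-stimulated genes 1 was counted, Ifi27l2a, at 440, 202 and 151 FPKM against 9.45, 14.7 and 31.4. Bst2, which was abundant in every library, had 161, 148 and 172 FPKM against 129, 145 and 202. All 14 had a difference above 0. The list's mean log2(FPKM + 1) was 4.66 to 5.24 in the rich libraries, and Shb-inactivated replicate 5, a poor library, lay inside that range at 5.04. Rsad2 had 44.8, 23.2 and 42.7 FPKM in the rich libraries, 29.8 in Shb-inactivated replicate 5, 15.7 in replicate 6 and 6.73 to 7.94 in the other 5. None of 9 class I genes and none of 14 cell cycle genes was counted in either direction, with medians of 0.21 and -0.04. With each library left out in turn the class I median ran from 0.076 to 0.34, the lowest without wild-type replicate 3 and the highest without Shb-inactivated replicate 5, and the cell cycle median ran from -0.19 to 0.049. B2m, the class I light chain, had 2438, 2124 and 1861 FPKM against 876, 1312 and 3355. H2-D1, a class I heavy chain with near copies, had 606, 443 and 434 FPKM against 287, 374 and 477. Pcna and Cdk1, genes of replication and of mitotic entry, differed by 0.33 and -0.11.

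Beside the listed genes, several abundant transcripts were higher, named here after their values were seen. The galectin gene Lgals3 differed by 4.42, with 744, 590 and 595 FPKM. The ferritin genes Ftl1 and Fth1 differed by 2.24 and 2.68, and the ferrous iron exporter Slc40a1 had 34.8, 60.7 and 42.2 FPKM against 0.75, 1.49 and 4.58. Igf1 had 35.4, 45.5 and 38.4 FPKM against 0.89, 1.51 and 4.2. Rgs1, a regulator of G protein signalling, had 470, 671 and 497 FPKM against 11.8, 17 and 41. Of the 12 genes with the largest differences, Wfdc17, a small secreted protein gene, had 863, 546 and 437 FPKM against 2.73, 3.14 and 67.3. Mmp12, the macrophage metalloelastase, had 287, 158 and 219 FPKM against 0.37, 0.88 and 22.6.

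**Figure D3:**
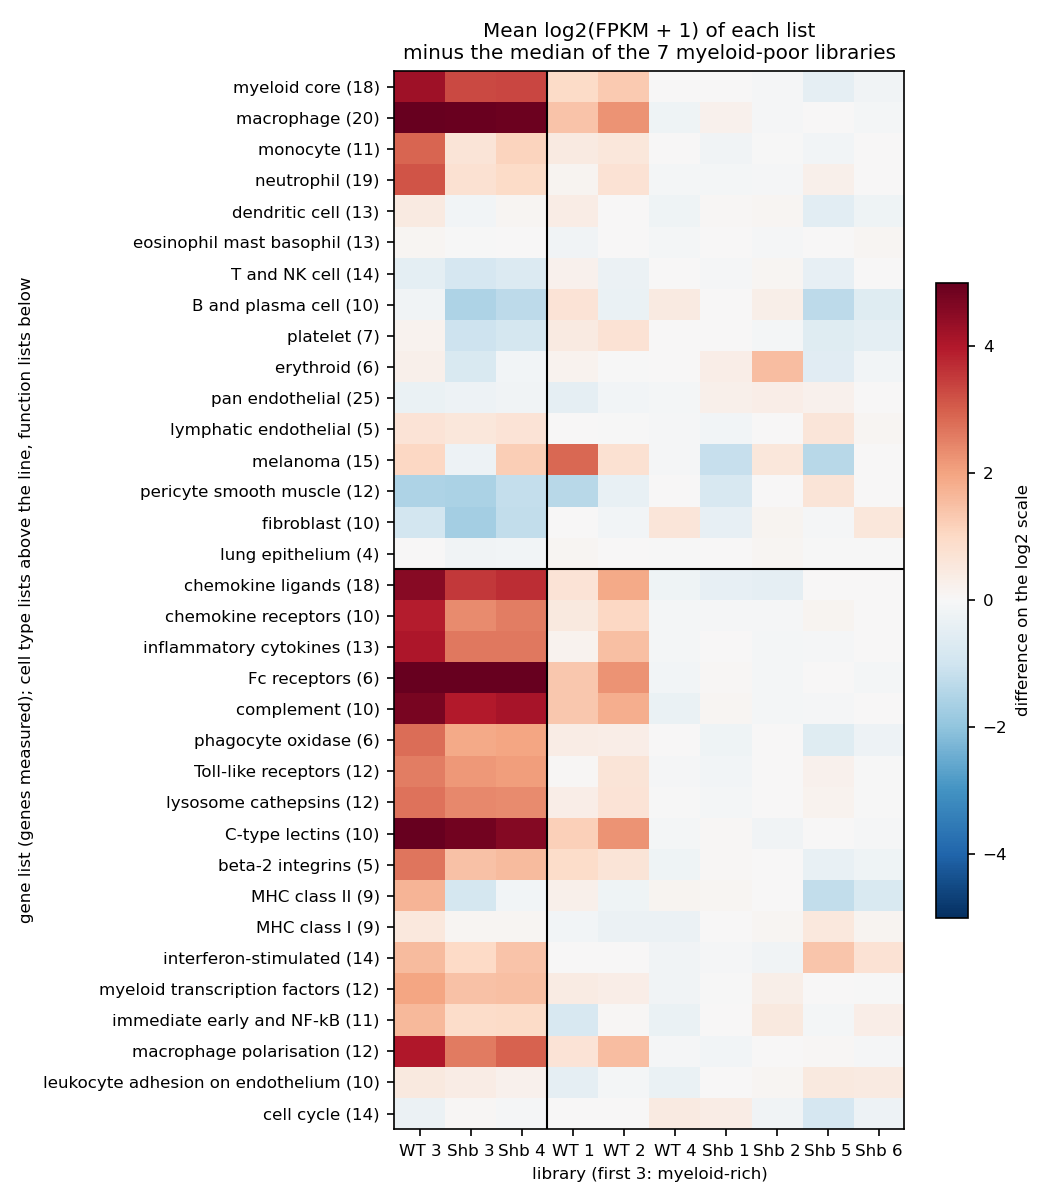
Mean log2(FPKM + 1) over the measured members of 34 gene lists in each library, minus the median of the 7 myeloid-poor libraries; red is above that median and blue below it. The macrophage row is 6.14 to 6.48 in the rich libraries before subtraction, against 3.47 and 2.66 in wild-type replicates 2 and 1 and 1.02 to 1.42 in the other 5, while the neutrophil, monocyte and MHC class II rows are high in wild-type replicate 3.

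The 3 rich libraries were not alike in their myeloid transcripts. Wild-type replicate 3 was compared with the mean of Shb-inactivated replicates 3 and 4, and a gene was counted when it lay beyond both by at least 1 from their mean. It is the only wild-type library in the class, so a difference between these libraries and a difference between the genotypes cannot be told apart, and no test was made. Over all tested genes 406 (3.06%) were counted as higher and 28 (0.211%) as lower in wild-type replicate 3, and the median was 0.03. Of the 691 genes higher in the rich libraries, 622 lay above the mean of the other 2, with a median of 0.53, and 133 (19.2%) were counted as higher. The macrophage list had a median of 0.29 with 2 of 20 counted as higher, Fcgr1 and Cd14. Marco, a scavenger receptor (7.22, 10.4 and 16.5 FPKM), and Cx3cr1, the fractalkine receptor (10, 13.4 and 13.2 FPKM), were lowest in wild-type replicate 3. The Fc receptor-like gene Fcrls (75, 108 and 101 FPKM) was lowest there too.

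Neutrophil and inflammatory monocyte genes set wild-type replicate 3 apart. S100a8 had 436, 5.6 and 11.1 FPKM and S100a9 had 540, 4.59 and 11.9 FPKM in the rich libraries. Both genes encode subunits of calprotectin, and wild-type replicate 2 (12.4 and 14.7 FPKM) exceeded both Shb-inactivated rich libraries. Of the 19 neutrophil list members 8 passed the filter, 2 of them only through the rich libraries, and 7 of the 8 were counted as higher in wild-type replicate 3, with a median of 3.22. They include the G-CSF receptor Csf3r (22, 1.91 and 2.4 FPKM), Trem1 (28.8, 1.14 and 1.91 FPKM) and the decoy receptor Il1r2 (59.8, 1.8 and 2.53 FPKM). Among those that did not pass, Cxcr2 had 7.39, 0.11 and 0.25 FPKM and Retnlg 12.7, 0.39 and 0.64. Ly6g, the gene of the usual neutrophil surface antigen, was at 0.2 FPKM or less in every library. The granule genes Mpo, Elane, Camp, Ngp and Ltf were at 0.42 FPKM or less in every library. Of the 11 monocyte list members, 8 were counted as higher in wild-type replicate 3, with a median of 2.41. Ccr2, the receptor of Ccl2, had 104, 8.25 and 15.5 FPKM there against 2.1, 2.7 and 8.74 in the poor libraries. Ly6c2 had 20.3, 1.82 and 4.7 FPKM against 3.49, 6.26 and 15, and Plac8 had 112, 12.1 and 22.5 against 13.9, 21.7 and 29.2. Rich against poor, 4 of 11 monocyte genes were counted, F13a1, Mgst1, Ms4a4c and Treml4. The list's rich against poor median of 1.58 became -0.14 when wild-type replicate 3 was left out, and 1.00 when Shb-inactivated replicate 4 was. That of the neutrophil list, 2.37 with 4 of 8 counted, became 1.67 when wild-type replicate 3 was left out, and 3.80 when Shb-inactivated replicate 3 was.

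Some inflammatory mediators were also higher in wild-type replicate 3. Of 12 cytokines and related genes 6 were counted there, with a median of 0.98, and of 18 chemokine ligands 6, with a median of 0.61. The following were named after their values were seen. Il1b had 870, 55.3 and 84.1 FPKM, and Cxcl2, a neutrophil attractant, had 1281, 397 and 399 FPKM. Cxcl3 had 96.9, 2.97 and 9.32 FPKM against 0.11, 0.26 and 5.79. The prostaglandin synthase Ptgs2 had 143, 16.8 and 19.4 FPKM against 0.84, 1.21 and 11.7. Arg1, arginase 1, had 331, 22.4 and 59.2 FPKM against 0.54, 1.11 and 33.8. Retnla, a marker of alternative activation, had 51.6, 3.12 and 4.34 FPKM and was listed at 0 in 6 of the poor libraries. By contrast Ccl12, Mrc1, Adgre1 and Trem2 differed by -0.24, 0.15, 0.13 and 0.11 between wild-type replicate 3 and the mean of the other 2.

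All 9 MHC class II genes were counted as higher in wild-type replicate 3 than in the other rich libraries, with a median of 1.78. H2-Aa had 416, 38.1 and 76.5 FPKM, and the poor libraries had 31.7, 77.5 and 109. The invariant chain gene Cd74 had 571, 45.2 and 96.8 FPKM against 34, 124 and 171. Class II genes thus did not separate the classes: 1 of 9 was counted rich against poor, H2-DMb1 (28.6, 6.75 and 8.84 FPKM against 1.72, 3.6 and 4.56). Leaving out wild-type replicate 3 turned the list's median from 0.63 to -0.36, and leaving out Shb-inactivated replicate 3 gave 1.31. B cells also bear class II molecules. Of the 10 B and plasma cell genes 6 were counted as higher in wild-type replicate 3 within the rich class, with Igkc at 40.9, 5.73 and 9.53 FPKM, and their part in the class II values was not tested.

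**Figure D4:**
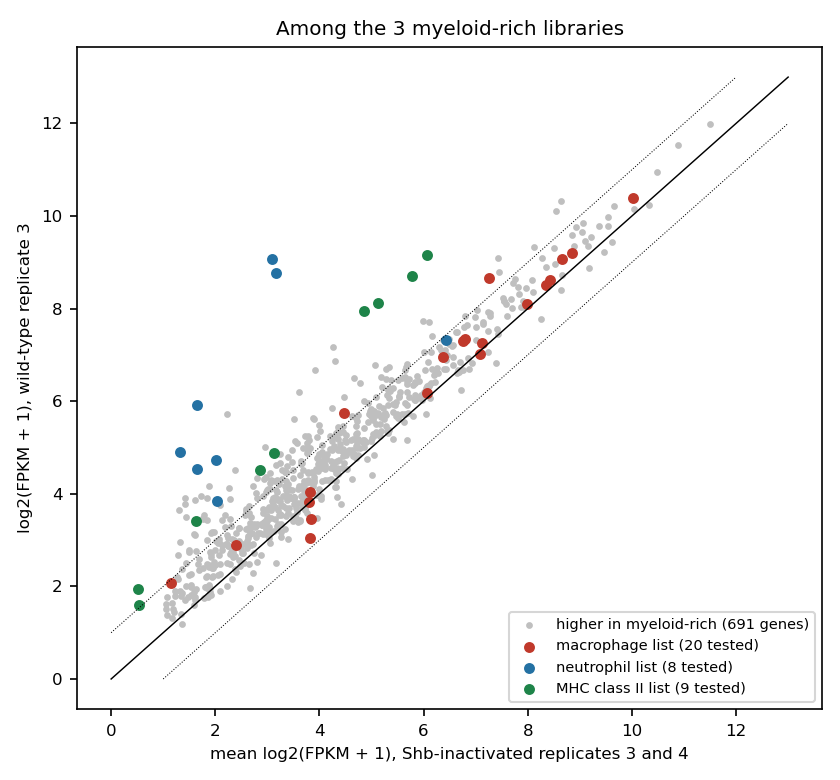
Log2(FPKM + 1) in wild-type replicate 3 (vertical axis) against the mean of Shb-inactivated replicates 3 and 4 (horizontal axis) for 691 genes higher in the rich libraries (grey) and for 3 lists; the solid line is equality and the dotted lines are 1 above and below it. Most macrophage genes (red) lie along the solid line, and 2 of 20, Fcgr1 and Cd14, lie more than 1 above it. By contrast 7 of 8 neutrophil genes (blue) and all 9 class II genes (green) lie more than 1 above it.

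Other blood cell lists did not share the rich pattern. None of 10 B and plasma cell genes was counted, and all 10 had a difference below 0, with a median of -0.89, which was -0.58 without Shb-inactivated replicate 3 and -1.40 without wild-type replicate 3. Igkc had a median of 48.7 and a range of 10.2 to 93.9 FPKM in the poor libraries, and Ighm, the IgM heavy chain, had 31.9, 8.77 and 11.8 FPKM against 8.21, 34.1 and 55.1. Of 8 tested T and NK cell genes 2 were lower, Cd3g and Thy1, and all 8 lay below 0. The T cell kinase gene Lck had 3.76, 2.4 and 3.43 FPKM against 5.46, 6.41 and 8.73. Platelet genes divided. Pf4, platelet factor 4, which some macrophages are known to express too, had 926, 564 and 498 FPKM against 25.7, 30.3 and 154. Ppbp, the other abundant platelet chemokine, had 62, 8.93 and 11.1 FPKM against 43.7, 58.8 and 134, and Itga2b, the platelet integrin, was lower with 5.04, 2.31 and 2.81 against 5.95, 11.3 and 16.3. The haemoglobin genes, whose copies are nearly identical and therefore uncertain, did not separate, with 9.65, 2.68 and 5.57 FPKM of Hbb-bs against 3.61, 6.85 and 37.5 and a median of 3.75 FPKM of Hba-a1 in the poor libraries. Among 12 dendritic cell genes 3 were higher (Itgax, Cd209a and Clec10a) and 1 was lower, Siglech of plasmacytoid dendritic cells, with 1.64, 1.41 and 2.08 FPKM against 4.16, 4.8 and 18.7. Fscn1, which endothelium also expresses, had 139, 132 and 188 FPKM against 144, 176 and 289. Of 13 eosinophil, mast cell and basophil genes 12 were not tested and stood at 2 FPKM or less in every library, Ccr3 being the highest. Ccr3 itself had 2, 1.29 and 0.9 FPKM against 0, 0.04 and 0.19, so the classes did not overlap at these low levels. The tested one, Kit, had 20.5, 27.1 and 33.9 FPKM against 25.6, 34.1 and 73.8. Lyve1, a hyaluronan receptor of lymphatic endothelium and of some macrophages, had 85.8, 69.3 and 50.8 FPKM against 1.47, 3.44 and 8, while Prox1, the defining lymphatic factor, was at 0.44 FPKM or less in every library. Flt4, the receptor VEGFR3, had 35.2, 39.2 and 48.9 FPKM against 45.6, 53.3 and 81.5.

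Endothelial markers were abundant in both classes. None of 25 pan-endothelial genes was counted in either direction. Of these 23 had a difference below 0, with a median of -0.33. In bulk samples fewer cells of a type and less RNA per cell cannot be told apart. Pecam1 had 745, 886 and 873 FPKM against 569, 907 and 1237, and Cdh5, the endothelial cadherin, had 385, 422 and 434 against 374, 498 and 616. Egfl7, an endothelial secreted factor, had 462, 485 and 509 FPKM, below all poor libraries (582, 645 and 848), with a difference of -0.49. The 25 genes held 0.902%, 1.04% and 1.15% of the summed FPKM of the rich libraries and 0.945% to 1.63% of that of the poor libraries, with wild-type replicate 1 the lowest of the latter. Tek and Clec14a were the 2 with a difference above 0 (0.27 and 0.47). Cd34 and Icam2, both abundant on endothelium, had 480, 632 and 573 FPKM against 357, 652 and 807, and 112, 114 and 127 against 97.5, 181 and 198. Of the leukocyte adhesion genes 1 of 8 tested was counted as higher, Vcam1, with 16.6, 21.6 and 16.1 FPKM against 3.7, 7.26 and 11.7. The selectin Sele, which activated endothelium makes, had 26.7, 15.1 and 9.75 FPKM against 1.47, 3.69 and 12.5.

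Mural, fibroblast and collagen genes made up 18 of the 85 lower genes. Of 19 tested collagen genes 10 were among the 85 genes counted as lower, beside 0.64% of all tested genes. Col3a1 had 47.6, 10.3 and 25.4 FPKM against 81, 107 and 256, a difference of -2.45 and a 5.16-fold lower mean. Col1a2 had 18.6, 3.86 and 9.94 FPKM against 28, 45.5 and 91.7. The type V and VI chains Col5a1, Col5a3, Col6a1, Col6a2 and Col6a3 differed by -1.89, -1.94, -1.88, -1.89 and -1.89. Col1a1 had the most negative difference of the collagens, -2.53, but was not counted, because wild-type replicate 3 (21.3 FPKM) lay above Shb-inactivated replicate 5 (18 FPKM). Of 12 pericyte and smooth muscle genes 6 were lower and none higher, with a median of -1.37. Acta2, smooth muscle actin, had 10.2, 9.16 and 11.7 FPKM against 16.7, 35.3 and 61.8. Pdgfrb, the receptor that recruits pericytes, had 2.48, 1.7 and 2.85 FPKM against 3.03, 10.2 and 15.6. Abcc9, a channel subunit of pericytes, had 36.8, 56.8 and 74.7 FPKM against 43, 51.3 and 138. Rgs5 had 28, 26.5 and 34.8 FPKM against 14.6, 97.2 and 277, and the lowest poor library was wild-type replicate 1. Of 7 tested fibroblast genes 4 were lower, with a median of -1.75.

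Low mural values also occurred in a poor library. The mean log2(FPKM + 1) of the 12 mural genes was 2.41, 2.38 and 2.77 in the rich libraries, 2.58 for wild-type replicate 1, and it ran from 3.17 to 4.61 over the other 6. Wild-type replicate 1 was the lowest poor library for 38 of the 85 lower genes. How often it was the lowest over all tested genes was not counted. The fibroblast list stood at 2.05, 1.27 and 1.73 in the rich libraries and 2.55 to 3.58 in the poor ones. Without wild-type replicate 3 the number of lower genes was 159 in place of 85. Other lower genes among the 12 with the largest differences were the early-response gene Arc (0.81, 0.37 and 0.61 FPKM against 2.91, 5.83 and 7.06), the TNF family ligand Tnfsf18 (6.56, 6.74 and 7.33 against 14.4, 34.3 and 39.5) and Myl9, a myosin light chain (16.1, 5.79 and 7.61 against 25.3, 40 and 48.3). Foxr2 was at 0.02 FPKM or less in the rich libraries and ranged from 0.18 to 16.2 in the poor ones. Rian.1, a noncoding RNA symbol, had 5.85, 3.58 and 4.8 FPKM against 8.39, 22.4 and 31.5. The chemokine Cxcl12, named after its values were seen, had 22.4, 19.9 and 13.8 FPKM against 38.4, 63.6 and 76.1.

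Melanoma transcripts did not separate the classes. None of 14 tested melanoma genes was counted, with a median of 0.40. Single libraries moved that median: it was 0.83 without wild-type replicate 1 and 0.17 without wild-type replicate 3. Leaving out Shb-inactivated replicates 1, 3, 4 and 5 in turn gave 0.16, 0.91, 0.14 and 0.096. Dct, an enzyme of melanin synthesis, had 106, 23.8 and 132 FPKM against 4.55, 34.6 and 419. The highest library was wild-type replicate 1, and the lowest were Shb-inactivated replicates 5 and 1. Tyrp1, another enzyme of melanin synthesis, had 63.6, 18.3 and 80.9 FPKM against 3.31, 29.2 and 337. Lung epithelial genes were at 2.28 FPKM or less in every library, with Sftpc at 0.02 FPKM or less and Epcam at 0.25 FPKM or less, and the highest of them was Ager.

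Wild-type replicates 1 and 2 were intermediate for many of these genes. Both lay above all of the other 5 poor libraries for 336 of the 691 higher genes, and for 933 of all 13280 tested genes. Relative to the mean of those 5, the median log2 level of the 691 genes was 0.43 and 0.42 higher in wild-type replicates 1 and 2, and 2.52, 1.85 and 1.86 higher in the rich libraries. That the rich libraries lie above follows from how the 691 genes were chosen. The highest poor library was wild-type replicate 2 for 293 of the 691 genes and wild-type replicate 1 for 228. No such count was made over all tested genes. Wild-type replicate 1 had Spearman correlations of only 0.844 to 0.931 with the other libraries.

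Because the class falls in both genotypes, the labelled comparison of genotypes was fitted with the class as a term. Limma on log2(FPKM + 1) with Benjamini-Hochberg adjustment found 0 genes (0%) past an adjusted p of 0.05, the smallest being 0.551. At an unadjusted p under 0.05 there were 1069 genes (8.05%), of which 415 were higher and 654 lower in Shb-inactivated libraries. Shb, which encodes the adaptor protein under study and lies at chr4:45423278-45532470 on the minus strand, had 2.78, 0.64 and 1.44 FPKM in the 3 rich libraries. In the poor libraries its FPKM was 5.44, 3.27 and 3.24 for wild-type tumours (replicates 1, 2 and 4) and 0.37 to 1.37 for Shb-inactivated ones, so the genotypes did not overlap in either class. Its difference with the class held fixed was -1.26 (SE 0.21), with an adjusted limma p of 0.551. The labels do not say which exons were removed, and the deposited value sums over the whole gene.

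With the class held fixed, most myeloid lists still lay lower in the Shb-inactivated libraries, without passing the test. The macrophage list had a median genotype difference of -1.08, and 19 of its 20 members lay below 0. In the myeloid core list 17 of 18 members lay below 0, among them Itgam, whose own FPKM set the class term. The MHC class II list had a median of -0.93 with 9 of 9 below 0, whereas the pan-endothelial list had 0.34 with 0 of 25. Such leanings were not particular to myeloid lists. The melanoma list had 14 of 14 below 0 and the B and plasma cell list 10 of 10, but the pericyte and smooth muscle list 0 of 12. The share of all tested genes below 0 was not counted, so these counts have no background beside them. Wild-type replicates 1 and 2 are the 2 poor libraries of intermediate myeloid level and wild-type replicate 3 the highest rich library, and their part in these medians was not tested. When wild-type replicate 4 (Itgam 0.2 FPKM) was left out, 14 genes passed an adjusted limma p of 0.05, and all 14 were lower in Shb-inactivated libraries. Itgam is among them, but its own FPKM set the class term of this fit, so its p is no independent test. Spi1, Ccr1, Cd86 and Fcgr1 also passed. Ccr1 then differed by -1.87 (SE 0.21) with an adjusted limma p of 0.0348. The wild-type poor libraries left in that fit are replicates 1 and 2. They had 2.33 and 5.94 FPKM of Ccr1, against 0.2 to 0.36 in the poor Shb-inactivated libraries. In that fit a genotype difference and the intermediate myeloid level of these 2 libraries cannot be told apart.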

How the data were processed

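Total RNA of sorted CD31-positive cells, after removal of CD11b-positive cells, was sequenced from a stranded kit with ribosomal RNA removal, per the labels' protocols. The authors deposited FPKM per gene symbol for each library, written with a comma as the decimal mark. Per the submitters' processing notes, reads were processed with TopHat2 2.1.1 and Cufflinks 2.2.1 on GRCm38. The annotation and strand setting were not given in the sources used here. Genotypes came from the sample titles, and the series text counts 4 and 6 animals. Libraries were split at 10 FPKM of Itgam. Values were taken as log2(FPKM + 1), a pseudocount of 1, where 3 or more libraries reached 1 FPKM. Rich minus poor differences are estimates without a test. Genotypes were compared with limma 3.58.1 (R 4.3.3), with trend and the class as covariate, two-sided, adjusted over 13280 genes. The fit was tested on simulated data with independent noise for each gene and library. It recovered 73% of seeded log2 shifts of 1 and 95% of shifts of 2, with 11 wrong calls among 179. Apart from a class shift in some genes, variation that genes share was not simulated, so these rates need not hold for the real libraries. Members and the 34 gene lists were chosen with earlier results of these data known, so no count over a list is independent support. As written, 5 listed symbols were not found. Of these, Pdpn (lymphatic list) and Clec7a (C-type lectins) stood in the data as Pdpn.1 and Clec7a.1, which the list counts leave out. Both were higher in the rich libraries, by 4.03 and 3.46. Genes named are the 3 markers, the 12 largest differences per direction without clone-type symbols, the 2 most abundant members of each list, Shb and genes past the genotype threshold. Further members and genes were named after their values were seen, and some genes of the lists are not reported here by name. Gene positions are from GENCODE vM21 and promoters from RefSeq. Alternatives changed the pseudocount, filter, scaling, class threshold, covariates and libraries. Plots used matplotlib 3.10.9.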

Additional observations from a re-analysis of the deposited data

Results flagged for a closer look

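Within each genotype, the highest and the lowest library of the genes named by rule and reported here were set against Dixon's 95% limit on the log2(FPKM + 1) scale, in 170 tests, and 4 passed it. The limit is set so that chance flags about 1 in 20 groups of like libraries. Each genotype here mixes rich and poor libraries, and many genes were named for that difference, so this rate need not hold. Ccr3, an eosinophil chemokine receptor, stood apart in wild-type replicate 3 at 2.0 FPKM. Shb-inactivated replicates 3 and 4, the rich libraries of the other genotype, had 1.29 and 0.9 FPKM of it. H2-D1, a class I gene, also stood apart in that library, at 606 FPKM. Shb-inactivated replicate 5 stood apart for Pecam1 at 1237 FPKM and for Cxcr4 at 501 FPKM. Tgfb1 went opposite ways in the genotypes by a narrow margin. Wild-type replicate 3 had 40.97 FPKM, against 40.73, 39.25 and 38.95 in the other wild-type libraries. Shb-inactivated replicates 3 and 4 had 29.3 and 34.1 FPKM, and the lowest poor library of their genotype had 34.4. The difference was not tested.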

How the results depend on the processing

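Of the medians of lists and the values of the 3 markers under each alternative, 681 moved by less than the spread between libraries, 55 by more, and 2, both of the monocyte list, turned the sign of a median of at least 1. With smaller medians included, 18 of the 738 values changed sign, in 6 lists: cell cycle, lymphatic, MHC class I and II, eosinophil and mast cell, and monocyte. The monocyte list, with a median of 1.58, had -0.064 in Shb-inactivated libraries only and -0.14 without wild-type replicate 3, its median running from -0.14 to 1.64 with each library left out in turn. Of the counts of 691 higher and 85 lower genes, pseudocount 0.1 gave 187 lower, and pseudocount 5 gave 438 higher and 18 lower. A mean of at least 5 FPKM gave 430 and 43, TPM scaling 154 lower and quantile normalization 146 lower. Setting the class at Itgam above 5, which moves wild-type replicate 2 into it, gave 297 and 5. Leaving out wild-type replicates 1 and 2 together gave 137 lower, Shb-inactivated libraries only 202 lower, and a difference of at least 2 gave 343 and 2. The cause of these shifts was not tested, beyond the fewer genes that stricter limits admit. With each library left out in turn the counts ran from 532 to 752 higher and from 79 to 159 lower, and the genotype count from 0 to 14. The labels link same-numbered libraries of the genotypes by the number alone. Correlations of their deviations from the genotype means were 0.43, -0.292, 0.699 and -0.547. The class was not removed from these deviations. Both replicates 3 are rich, whereas of the replicates 4 only the Shb-inactivated one is. The correlations therefore cannot show whether such libraries are paired. A replicate block with the class gave 0 genes. Depth is unknown, so the precision of low FPKM values cannot be given.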
